A study of Mus musculus with 18 samples.

Results

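The FKBP and parvulin genes are those of the prolyl isomerases, outside the cyclophilins, that were examined here in mouse small cell lung cancer cells in which p53 can be switched back on. Members were the rows of the deposited expression table whose gene name was Fkbp1a, Fkbp2, Fkbp3, Fkbp4, Fkbp5, Fkbp8, Fkbp9, Fkbp10 or Pin4, so 9 of the 25239 genes in the table. They were followed across all 18 samples, in TPM (transcripts of the gene as a share of all transcripts, set to a fixed total), a level that is scaled for gene length and for the total of each sample. 8 of the 9 passed the filter on low values (at least 1 TPM in at least 3 samples) and were tested with the rest of the table, 12828 genes in all.

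Prolyl isomerases speed the flip of the peptide bond before proline, a slow step of protein folding and a switch in folded proteins. FKBPs are the receptors of the drugs FK506 and rapamycin, cyclophilins those of cyclosporin A, and parvulins form the remaining family. Cyclophilin A, the product of Ppia, is the cyclophilin whose gene the guides in these samples target.

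3 cell lines (4711-1, 4711-18 and 4716-11) were each given 1 of 3 guide RNAs and then vehicle or 4-hydroxytamoxifen (4-OHT), which gives 6 conditions with 1 sample of each line. All lines are of Type D, the study's name for lines that die by necrosis after p53 returns, and each comes from 1 tumour of a mouse whose Rb1 and Rbl2 were deleted by an adenovirus carrying Cre under the CMV promoter, with Trp53 held off by a gene trap (the XTR allele) that Cre inverts into place and a Rosa26 FlpO-ER allele. sgBgal, the guide against beta-galactosidase, is the control guide; sgPpia#3.2 and sgPpia#4.1 are guides against Ppia, and Cas9 came with each guide vector, so cells of a line are a mixed population in which cyclophilin A is lowered but not absent. Control cells received vehicle and Restored cells 500 nM 4-OHT for 72 h, which activates FlpO-ER to remove the trap, so Restored differs from Control by 4-OHT and FlpO activity as well as by p53. The 3 samples of a condition are 3 lines, so p-values between single conditions measure the spread between these lines. Restoration averaged over the 3 guides sets 9 Control against 9 Restored samples, all from these 3 lines. The fit without a block counts those samples as independent, although samples of a line deviated together.

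The targeted genes were checked first. Trp53 was 5.45 to 8.41 TPM in Control and 181 to 236 TPM in Restored samples. In Control cells the mean of Ppia was 2709 TPM ± 137 (SD, n = 3) for the control guide, 979 ± 287 for sgPpia#3.2 and 1783 ± 147 for sgPpia#4.1. In Restored cells it was 2114 ± 591, 958 ± 243 and 1545 ± 309 TPM (SD, n = 3 each), and the range with sgPpia#4.1 (1191 to 1765 TPM) overlapped that with sgBgal (1551 to 2730 TPM). Against sgBgal, Ppia passed the test described below in no fit without a block; with the cell line as a block it passed for sgPpia#3.2 (adjusted p = 0.00153 in Control and 0.0431 in Restored cells, limma) and not for sgPpia#4.1 (adjusted p = 1 and 0.969). With rescaling by the median of ratios and the block together, sgPpia#3.2 passed in Control (adjusted p = 0.0176) and not in Restored cells (adjusted p = 0.277). The neuroendocrine markers Neurod1, Chga, Chgb and Calca were under 1 TPM in every sample, although the labels call the cells small cell lung cancer. 7 of 8 fibroblast and mesenchyme markers were under 1 TPM throughout. The other, Vim, was 2827 to 6133 TPM in Control and 2436 to 5418 TPM in Restored samples. The summed level of 4 immune markers was 2.95 to 7.38 TPM in Control and 22.6 to 42.6 TPM in Restored samples, with Ptprc and Cd3e under 1 TPM in all of them. Cd68 was the listed immune gene that passed the test, and the part of this in the results below was not tested. The summed level of 3 alveolar and club cell markers was highest in Control samples of 4711-18, up to 45.6 TPM and nearly all of it Sftpb, against at most 2.18 TPM in the other lines; the 3 Control samples of 4711-18 also have the highest Fkbp4, and 2 of them the highest Fkbp5, and the part of this in those values was not tested. Over all genes tested, the 4711-18 sgPpia#3.2 Control library was the least like the other libraries of its line and state, with a mean correlation of 0.972 against 0.982 to 0.995 for the others. Calls of the 8 tested genes that changed when it was left out are given beside them.

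The promoters of Fkbp4 and Fkbp5 are shown because these are the genes whose Control and Restored samples did not overlap. Each run is the 250 bases before the annotated start, from the RefSeq promoter table of build GRCm38.p6, which holds entries for 8 of the 9 genes. Capitals mark matches, on either strand, to the letters GGGCGG (the GC box), CCAAT and the heat shock pattern GAANNTTC or TTCNNGAA.
Fkbp4, chr6:128438657-128438906, minus strand: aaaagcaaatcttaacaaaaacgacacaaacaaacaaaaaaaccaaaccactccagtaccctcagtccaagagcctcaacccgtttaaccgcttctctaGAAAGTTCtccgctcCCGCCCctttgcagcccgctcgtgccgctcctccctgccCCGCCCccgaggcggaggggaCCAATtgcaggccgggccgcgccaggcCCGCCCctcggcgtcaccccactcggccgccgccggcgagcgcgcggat
Fkbp5, chr17:28486150-28486399, minus strand: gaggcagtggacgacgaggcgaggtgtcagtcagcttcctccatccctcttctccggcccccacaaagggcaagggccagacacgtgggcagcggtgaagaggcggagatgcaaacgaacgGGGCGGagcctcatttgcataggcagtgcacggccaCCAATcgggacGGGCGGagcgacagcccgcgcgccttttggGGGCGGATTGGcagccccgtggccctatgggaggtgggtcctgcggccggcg
Both promoters hold the GC box and the CCAAT letters. In windows of that length, the former is found in 32.7% and the latter in 33.8% of all 32851 promoters of the table. A heat shock pattern lies 151 bases before the Fkbp4 start and in 12.8% of all promoters, and none was found in the Fkbp5 window. TTTGAA or TTCGAA (17.1% of promoters), TTTNNCGC (4.28%), TATAAA (12.4%) and AGAACA (16.1%) were also searched and had no match in either window. These are matches of letters in a short window and say nothing of binding.

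Fkbp1a, Fkbp8 and Fkbp4 were the genes with the highest levels, and the range over genes was wide. Over the 18 samples the median level was 541 TPM for Fkbp1a (406 to 749), 399 for Fkbp8 (303 to 474) and 338 for Fkbp4 (224 to 722). Fkbp9 (104 TPM, 79.3 to 154) and Fkbp3 (93.5 TPM, 71.1 to 142) followed, and their ranges overlapped. Pin4 had a median of 58.8 TPM (44.4 to 76.5) and Fkbp5 of 35.6 TPM (20.4 to 79.2), again overlapping. Fkbp10 spread furthest, from 0.268 to 91.8 TPM around a median of 19.5. Fkbp2, whose product is an isomerase of the endoplasmic reticulum, was listed at 0 in 6 samples and reached at most 0.146 TPM in the others, so it failed the filter and was not tested. In RefSeq, Fkbp2 overlaps another protein-coding gene, LOC114841036, which was listed at 1.57 to 4.6 TPM, and how reads in the overlap were assigned is not given in the sources used here. Fkbp1a has processed pseudogenes, and its values are uncertain to the extent that reads were shared with them.

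**Figure D1:**
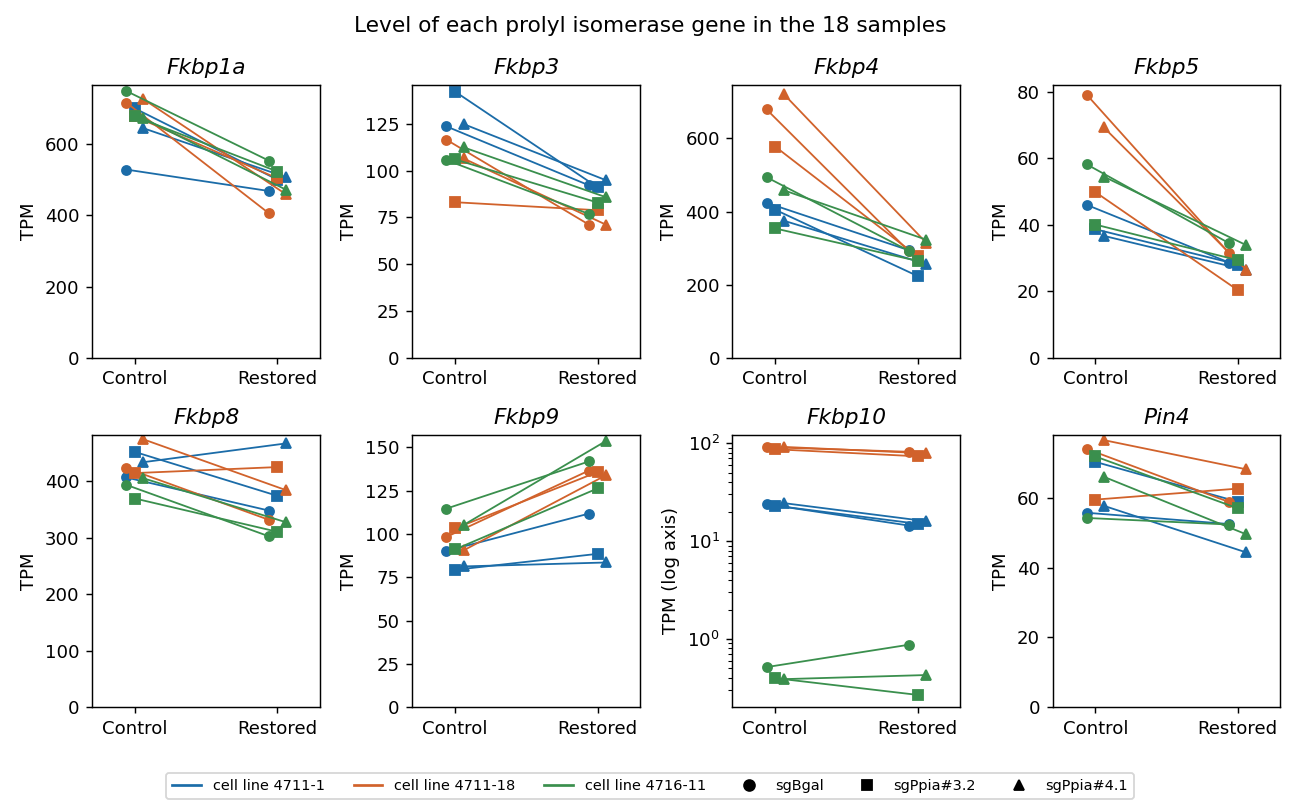
Level of the 8 tested genes in TPM (vertical axes from 0, except the log axis for Fkbp10) in Control and Restored samples; lines join the samples of 1 cell line and guide RNA, colour marks the line and symbol the guide. Fkbp4 and Fkbp5 are lower in every Restored sample than in any Control sample, Fkbp9 rises along all 9 lines, and Fkbp10 separates the 3 cell lines.

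Restoration of p53 went with lower levels of Fkbp1a, Fkbp3, Fkbp4 and Fkbp5 and a higher level of Fkbp9, when averaged over the 3 guides. 5 of 8 tested genes passed the test (limma on log2(TPM + 1), adjusted p under 0.05), 4 lower and 1 higher, against 39.1% of all 12828 genes, 11.2% lower and 27.9% higher. The median difference was -0.35 over the 8 genes and 0.17 over all genes tested. Since the median of all genes moved, values were also rescaled by the median of ratios, under which calls over all genes were 51.3% higher in place of 71.4%. After rescaling Fkbp8 and Pin4 also passed as lower (adjusted p = 0.0022 and 0.0058), Fkbp9 did not pass (adjusted p = 0.336), and Fkbp1a, Fkbp3, Fkbp4 and Fkbp5 still passed. Without the line 4716-11 the count was 3, against 24.5% of all genes, with Fkbp3 (adjusted p = 0.0763) and Fkbp9 (adjusted p = 0.212) lost. In RNA from bulk cultures, fewer cells of a kind and less RNA per cell cannot be told apart.

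Among the 8 tested genes, the steroid receptor co-chaperones Fkbp4 and Fkbp5 fell furthest. Fkbp4 encodes FKBP52, which binds HSP90 and promotes the activity of steroid hormone receptors. In Control cells with sgBgal, sgPpia#3.2 and sgPpia#4.1, Fkbp4 was 424, 405 and 375 TPM in 4711-1. It was 679, 578 and 722 TPM in 4711-18 and 494, 354 and 458 TPM in 4716-11. In the matching Restored cells it was 294, 224 and 257 TPM in 4711-1, 291, 277 and 315 TPM in 4711-18, and 292, 265 and 323 TPM in 4716-11. The lowest Control sample was therefore above the highest Restored sample, and the highest values were the Control samples of 4711-18. On the log2(TPM + 1) scale the difference was -0.79 (SE 0.14, adjusted p = 0.000576), and Restored levels were 42.8% to 74.9% of their Control partners.

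Fkbp5 encodes FKBP51, a close relative of FKBP52 on HSP90 that restrains the glucocorticoid receptor and whose gene is a well known target of that receptor. With sgBgal, sgPpia#3.2 and sgPpia#4.1 in turn, Control levels were 46, 38.7 and 36.7 TPM in 4711-1, 79.2, 49.9 and 69.4 TPM in 4711-18, and 58.2, 40.1 and 54.5 TPM in 4716-11. Restored levels were 28.7, 28.1 and 26.4 TPM in 4711-1, 31.4, 20.4 and 26.4 TPM in 4711-18, and 34.5, 29.4 and 33.9 TPM in 4716-11. Here too the states did not overlap, which held for 3.06% of all genes tested in this direction. The difference was -0.82 (SE 0.14, adjusted p = 0.00038). Over the 18 samples Fkbp4 and Fkbp5 had a Pearson correlation of 0.92, a description over samples that share lines and states.

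Fkbp1a encodes FKBP12, the small cytosolic FKBP that holds TGF-beta family type I receptors inactive and binds calcium release channels. Its Control samples ran from 529 to 749 TPM around a median of 678, and its Restored samples from 406 to 554 around 501. The states overlapped through 1 low Control sample, 4711-1 with sgBgal, and Fkbp1a was lower after restoration in 9 of 9 pairs of the same line and guide. The difference was -0.47 (SE 0.09, adjusted p = 0.000785).

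Fkbp3 encodes FKBP25, a nuclear FKBP that binds nucleic acids. Control samples lay between 83.1 and 142 TPM and Restored samples between 71.1 and 94.8 TPM. The Control sample inside the Restored range was 4711-18 with sgPpia#3.2, the library that stood apart, and all 9 pairs were lower after restoration. The difference was -0.44 (SE 0.11, adjusted p = 0.00463).

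Fkbp9, which encodes an FKBP of the endoplasmic reticulum, moved the other way. It was 79.3 to 115 TPM in Control and 83.5 to 154 TPM in Restored samples and was higher in 9 of 9 pairs. The difference was 0.36 (SE 0.13, adjusted p = 0.0414), beside 0.17 for the median of all genes. In 4711-1 with sgPpia#4.1 the pair differed least, 81.3 against 83.5 TPM.

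Fkbp8, Pin4 and Fkbp10 did not pass. Fkbp8 encodes FKBP38, which sits on the outer mitochondrial membrane and binds BCL-2; its difference was -0.22 (95% interval -0.41 to -0.02, adjusted p = 0.0785), with 7 of 9 pairs lower. Pin4 encodes the parvulin Par14, linked to ribosome assembly, and gave -0.21 (-0.43 to 0.01, adjusted p = 0.118), with 8 of 9 pairs lower. Fkbp10 gave -0.25 with an interval of -2.97 to 2.47, as wide as its spread between lines. With the cell line as a block, which removes differences between lines, 8 of 8 genes passed, 7 lower and 1 higher, but so did 63.4% of all genes; the adjusted p was then 0.00917 for Fkbp8, 0.0355 for Pin4 and 0.0417 for Fkbp10. Without the library that stood apart the count was 5 of 8 without the block, against 40.5% of all genes. With the block it was 7 of 8, against 63.7%, and Fkbp10 no longer passed (adjusted p = 0.0538, limma).

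**Figure D2:**
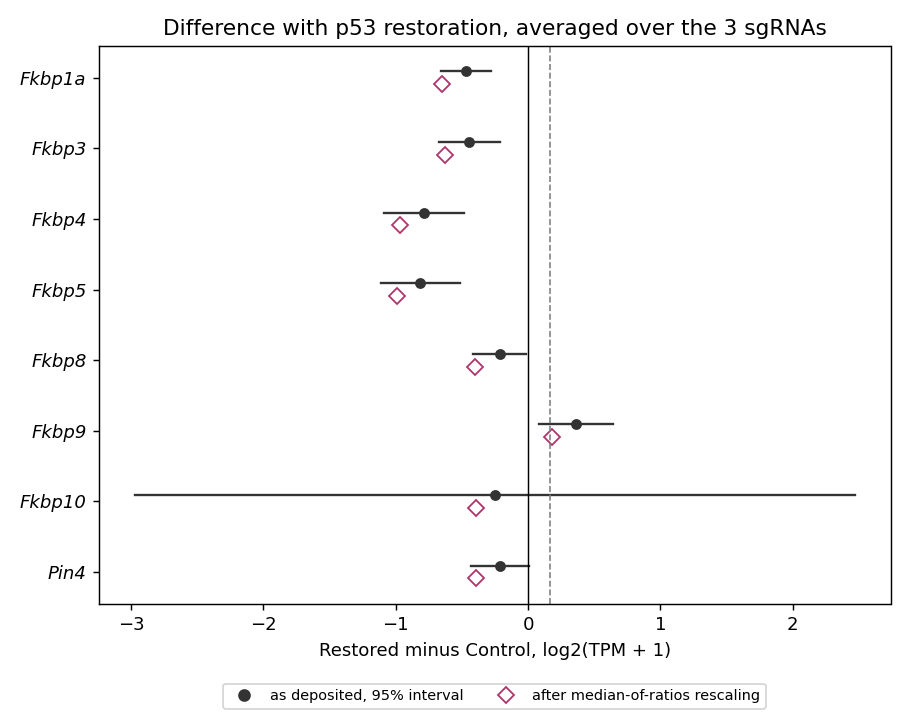
Difference between Restored and Control on the log2(TPM + 1) scale, averaged over the 3 guides; filled points carry 95% intervals from limma, open diamonds are the same difference after rescaling, and the dashed line is the median of all genes tested, 0.17. Fkbp4 and Fkbp5 lie furthest left, Fkbp9 alone lies right of 0, and the interval of Fkbp10 spans from -2.97 to 2.47.

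Guide by guide the estimates were close to the averaged ones but fewer passed. With sgBgal, Fkbp4 (-0.83, adjusted p = 0.0358) and Fkbp5 (-0.90, adjusted p = 0.0234) passed, 2 of 8 against 13.8% of all genes. With sgPpia#3.2, 0 of 8 passed in limma against 10% of all genes, with Fkbp4 nearest at -0.78 (adjusted p = 0.0602); 3 genes (Fkbp1a, Fkbp4 and Fkbp5) had an unadjusted p under 0.05. With sgPpia#4.1, Fkbp1a (-0.51, adjusted p = 0.0493) and Fkbp5 (-0.83, adjusted p = 0.0417) passed, 2 of 8 against 10.3%. With the block the counts were 6, 4 and 5 of 8, against 42.1%, 34.1% and 35.1% of all genes. After rescaling the counts were 5, 2 and 3, all lower, against 13%, 9.99% and 10.2% of all genes, and with sgPpia#3.2 Fkbp4 (-0.96, adjusted p = 0.0197) and Fkbp5 (-0.89, adjusted p = 0.045) then passed. Leaving out 4711-1, 4711-18 or 4716-11 took the counts for sgBgal and sgPpia#4.1 to 0. The shares of all genes were then 5.49%, 7.58% and 3.77% for sgBgal and 6.38%, 4.9% and 2.23% for sgPpia#4.1. Leaving out the library that stood apart took the count for sgPpia#4.1 to 1 (10.6% of all genes), with Fkbp1a lost (adjusted p = 0.0555, limma). The count for sgBgal became 3 (14.5%), with Fkbp3 gained (-0.53, adjusted p = 0.0458). That for sgPpia#3.2 stayed at 0 (9.53%), where Fkbp4 was -0.57 (adjusted p = 0.18).

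Partners of these genes are counted beside the 39.1% of all genes that passed, 27.9% higher and 11.2% lower, with a median of 0.17; with the line as a block 63.4% passed, 44.1% higher and 19.3% lower. Of 13 tested genes of HSP90 and its co-chaperones, 3 were lower after restoration (Hsp90ab1 by -0.44, Stip1 by -0.50 and Ahsa1 by -0.43, on the log2 scale) and 2 higher (Dnajb1 by 0.76 and Nr3c1, the glucocorticoid receptor, by 0.98), and the list median was 0.03; with the line as a block 3 were higher and 5 lower. Of 10 glucocorticoid-responsive genes, Tsc22d3 (-1.02) and Cebpd (-1.51) were lower and Dusp1 (1.62), Klf9 (0.52) and Ddit4 (1.60) higher, with 3 higher and 4 lower under the block. Of 13 partners and targets of FKBP12, 5 were higher (Acvr1, Itpr2, Itpr3, Mtor and Ppp3cc, from 0.39 to 1.06) and 0 lower, with a median of 0.39; under the block 9 were higher and 1 lower.

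Of 18 genes of folding in the endoplasmic reticulum and collagen maturation, 3 were higher (Pdia3, Canx and Plod2) and 3 lower (Hsp90b1, Pdia6 and Ppib), and under the block 4 and 5. Of 8 partners of Fkbp8 and Fkbp3, Bcl2l1 (0.88) and Mdm2 (3.99) were higher and Ncl (-0.60) lower, and under the block 3 and 2. Among 8 tested FKBP-like and parvulin genes outside the 9, Fkbp11 fell by 0.84 and Fkbpl rose by 0.65, and under the block 3 were higher and 3 lower. Of 16 cyclophilins 3 were higher (Ppil2, Ppil3 and Nktr) and 4 lower (Ppib, Ppic, Ppie and Ppih), and under the block 6 and 6.

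With the Ppia guides no change of the 8 genes was detectable, in a fit in which Ppia itself did not pass. Against sgBgal, 0 of 8 and 0 of all 12828 genes (0%) passed in limma for sgPpia#3.2 in Control, sgPpia#4.1 in Control, sgPpia#3.2 in Restored and sgPpia#4.1 in Restored cells, while 311, 27, 154 and 68 genes had an unadjusted p under 0.05. None of those were among the 8. The estimate furthest from 0 was Fkbp5 with sgPpia#3.2 in Control cells, at -0.48 (95% interval -0.99 to 0.04). Without the library that stood apart, 0 genes passed in that comparison, but the Fkbp5 interval no longer crossed 0 (-0.59, -1.17 to -0.0035, adjusted p = 0.998), Fkbp4 went from -0.26 to -0.46, Fkbp3 from -0.09 to 0.09, and Fkbp10 lay furthest from 0 at -1.39 (-6.61 to 3.84). Fkbp5 was lower than with sgBgal in 12 of 12 comparisons within a line and state, which reuse the same 6 sgBgal samples. Fkbp8 was higher in 10 of 12 and at most 0.25 higher in the fits (sgPpia#4.1 in Restored cells, -0.09 to 0.59). Fkbp9 was lower in 10 of 12, Fkbp4 was lower in 9 of 12 and Pin4 was higher in 9 of 12. For Fkbp1a, whose product is the receptor of FK506 as cyclophilin A is that of cyclosporin A, the 4 estimates lay between 0.02 and 0.11, each with an SE of 0.15.

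**Figure D3:**
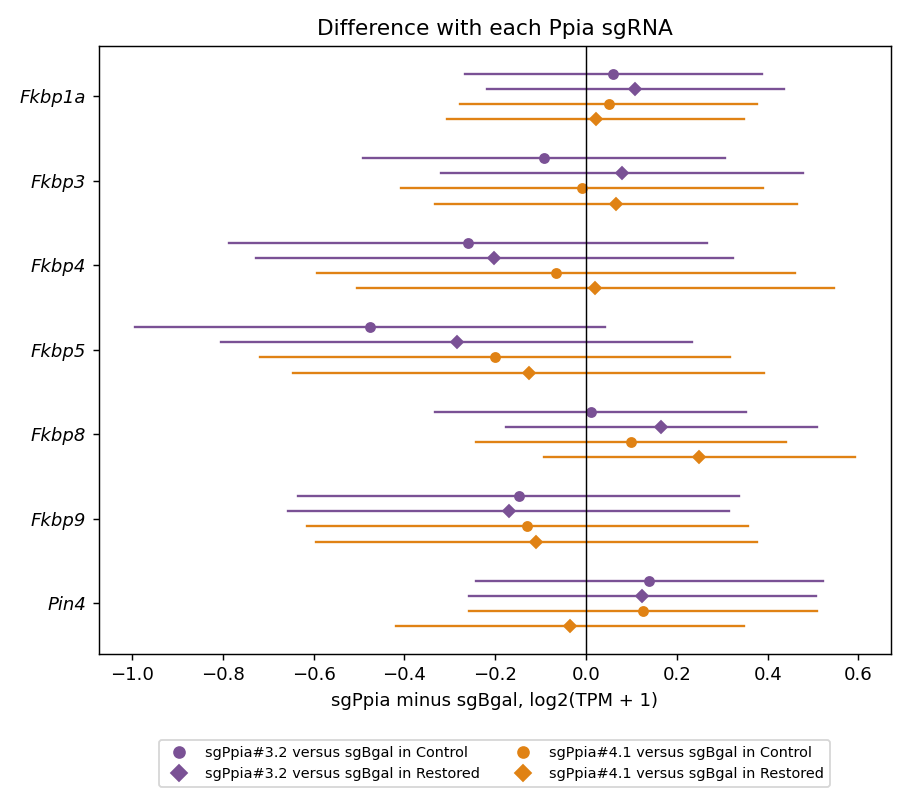
Difference of each Ppia guide from sgBgal on the log2(TPM + 1) scale with 95% intervals, in Control (circles) and Restored (diamonds) cells, for 7 genes; Fkbp10 is left out because its intervals are several units wide. With all 18 samples, all intervals cross 0, and the 4 Fkbp5 estimates lie between -0.48 and -0.13.

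The response to restoration was also set against the guide. The difference of response from that with sgBgal passed for 0 of 8 and 0 of 12828 genes (0%) with either Ppia guide, and 31 and 18 genes had an unadjusted p under 0.05. For Fkbp4 the response with sgPpia#3.2 differed from that with sgBgal by 0.06 (95% interval -0.69 to 0.80), and for Fkbp5 by 0.19 (-0.54 to 0.92). Without the library that stood apart these became 0.26 (-0.48 to 1.00) and 0.30 (-0.48 to 1.09), that of Fkbp10 went from -0.14 to 1.17 (-5.85 to 8.18), and 0 of 8 and 0 of all genes passed. Intervals of this width do not show that the guides act alike.

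Fkbp10 differed more between cell lines than between conditions. Fkbp10 encodes FKBP65, an endoplasmic reticulum isomerase that assists collagen folding. With sgBgal, sgPpia#3.2 and sgPpia#4.1 in turn, it was 23.8, 23 and 24.5 TPM in Control and 14.4, 15 and 16 TPM in Restored cells of 4711-1. In 4711-18 it was 91.2, 86.9 and 91.8 TPM in Control and 81.8, 73.6 and 78.9 TPM in Restored cells. In 4716-11 it was 0.516, 0.398 and 0.389 TPM in Control and 0.874, 0.268 and 0.428 TPM in Restored cells. The 3 lines did not overlap, and the share of all genes for which this holds was not computed. In a fit with condition and line, 4711-18 exceeded 4711-1 by 2.08 on the log2(TPM + 1) scale (adjusted p = 1.59e-08, limma). Fkbp10 passed the filter on low values through the 2 lines in which it was high, and the pseudocount flattens its spread in 4716-11, so the differences from that line, -3.77 against 4711-1 and -5.85 against 4711-18, are given as a description with no test. Each line is 1 tumour, so p-values between lines do not compare kinds of tumour.

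The other 7 tested genes differed less between lines. Of them, 4711-18 against 4711-1 gave 3 of 7 passing against 49.1% of all genes, with Fkbp4 (0.45) and Fkbp9 (0.37) higher and Fkbp3 (-0.34) lower. 4716-11 against 4711-1 gave 3 of 7 against 46.6%, with Fkbp9 (0.44) higher and Fkbp3 (-0.22) and Fkbp8 (-0.24) lower. 4716-11 against 4711-18 gave 2 of 7 against 55.2%, with Fkbp4 (-0.31) and Fkbp8 (-0.22) lower. Shares over only 7 genes are not read as a difference from those of all genes. Without the library that stood apart, Pin4 passed as higher in 4711-18 than in 4711-1 (0.33, adjusted p = 0.0054), so that 4 of 7 passed there against 47.4%. It also passed as lower in 4716-11 than in 4711-18 (-0.28, adjusted p = 0.0121), where Fkbp4 no longer passed (-0.26, adjusted p = 0.103). After rescaling, Fkbp3 and Fkbp8 no longer passed for 4716-11 against 4711-1 (adjusted p = 0.261 and 0.199), nor Fkbp4 and Fkbp8 for 4716-11 against 4711-18 (adjusted p = 0.503 and 0.819). In that last comparison Fkbp1a (0.27, adjusted p = 0.0467, limma), Fkbp3 (0.31, adjusted p = 0.0131) and Fkbp9 (0.26, adjusted p = 0.0263) passed as higher after rescaling. The 2 calls, both lower, thus became 3 of 7, all higher, against 51.9% of all genes.

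Responses were then fitted line by line, with the guide as a covariate, a fit chosen after the data were seen. Each line has 1 sample per guide and state, so p-values of this fit measure the spread between guide populations of the same lines. The same holds for its tests of the difference between lines. In 4711-1, 5 of 8 passed against 37.6% of all genes, in 4711-18 5 of 8 against 54%, and in 4716-11 6 of 8 against 43.5%. Without the library that stood apart, 6 of 8 passed in 4711-18 against 58%, as Pin4 moved from -0.14 (adjusted p = 0.415) to -0.32 (adjusted p = 0.0387). Fkbp1a, Fkbp3, Fkbp4 and Fkbp5 passed as lower in each line. Fkbp4 changed by -0.64 in 4711-1, -1.16 in 4711-18 and -0.56 in 4716-11, each with an SE of 0.11. Fkbp5 changed by -0.53, -1.31 and -0.62, each with an SE of 0.13. Fkbp10 changed by -0.62 (adjusted p = 0.000621) in 4711-1, by -0.20 (adjusted p = 0.126) in 4711-18 and by 0.07 in 4716-11, where its level was under 1 TPM and restored levels ran from 67.4% to 169% of their partners. Fkbp9 passed as higher in 4711-18 (0.47) and 4716-11 (0.44) and was 0.17 in 4711-1 (adjusted p = 0.246). Fkbp8 passed as lower in 4716-11 (-0.31). After rescaling, Fkbp9 passed in neither 4711-18 (0.23, adjusted p = 0.0896) nor 4716-11 (0.28, adjusted p = 0.0557). Fkbp10 (-0.44, adjusted p = 0.00772) and Fkbp8 (-0.45, adjusted p = 0.00776) then passed as lower in 4711-18, and Pin4 (-0.42, adjusted p = 0.036) in 4716-11.

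Tests of the difference between lines passed for 1 of 8 genes in each pair of lines, against 2.81% of all genes for 4711-18 minus 4711-1, 1.7% for 4716-11 minus 4711-1 and 3.32% for 4716-11 minus 4711-18. They were Fkbp5 for 4711-18 minus 4711-1 (-0.78, adjusted p = 0.0357), Fkbp4 for 4716-11 minus 4711-18 (0.60, adjusted p = 0.0487) and Fkbp10 for 4716-11 minus 4711-1. The last is not read as a difference of response, because under 1 TPM the pseudocount holds the Fkbp10 response in 4716-11 near 0. Fkbp5 for 4716-11 minus 4711-18 was 0.69 (adjusted p = 0.0536). After rescaling this Fkbp5 value passed (0.76, adjusted p = 0.043) and the Fkbp4 value did not (0.68, adjusted p = 0.052). Without the 4711-18 library that stood apart the Fkbp5 values became -0.89 (adjusted p = 0.0101) and 0.80 (adjusted p = 0.0133) and the Fkbp4 value 0.62 (adjusted p = 0.0279), while the shares of all genes rose to 9.71% for 4711-18 minus 4711-1 and 10.9% for 4716-11 minus 4711-18.

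**Figure D4:**
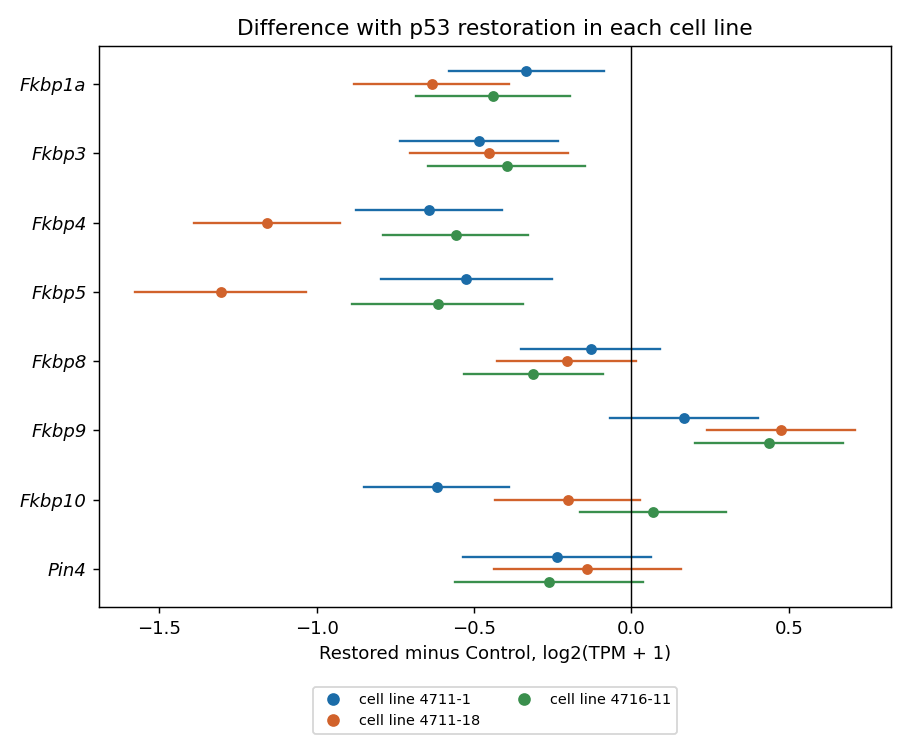
Difference between Restored and Control in each cell line on the log2(TPM + 1) scale with 95% intervals, from a fit with the guide as a covariate. Fkbp4 and Fkbp5 fall furthest in 4711-18 (-1.16 and -1.31), and Fkbp10 falls in 4711-1 (-0.62) and is near 0 in 4716-11, where its level is under 1 TPM.

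Genes with the most similar profiles over the 18 samples are given as a description, by Pearson correlation of log2(TPM + 1) over samples that share lines and states. For Fkbp4 they were Heatr3 (0.97), Tcp1 (0.96) and Chchd1 (0.94), and for Fkbp5 Mybl2 (0.96), Pmf1 (0.95) and Hspd1 (0.95). For Fkbp1a they were Timm10b (0.94), Anp32a (0.93) and Snrpd2 (0.93), and for Fkbp3 Ryk (0.95), Rps29 (0.93) and Stip1 (0.93). For Fkbp9 they were Cpt1c, Csrp1 and St7 (each 0.93), and for Fkbp8 S100a16 (0.92), Cdc42ep5 (0.87) and St6galnac6 (0.86). Fkbp10 was closest to Tusc1 (0.99), Cbx7 (0.99) and Sema3b (0.98), and Pin4, with the lowest values, to Pfdn4 (0.82), Smn1 (0.81) and Spa17 (0.80).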

How the data were processed

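RNA from 18 samples was sequenced (NEBNext Ultra II libraries). The deposited table holds TPM values for 25239 genes, which the authors computed after bcl2fastq 2.17 and HISAT2, per the submitters' processing notes; the notes name both mm10 and GRCm39, and the counter and annotation are not given in the sources used here. TPM keep no depth, so depth is unknown. 11485 to 12067 genes per sample were at or above 1 TPM.

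limma 3.58.1 (R 4.3.3) was fitted to log2(TPM + 1) for the 12828 genes that reached 1 TPM in 3 or more of the 18 samples; each condition had its own mean, with Benjamini-Hochberg adjustment over all of them. A fold change on this scale understates changes of low genes. Cell lines were compared with line added to the fit, and Fkbp10 was left out of the counts between lines after its values were seen. Samples of the same line deviated together (mean correlation 0.729, lowest 0.58, over 45 pairs), so the line, which the labels give, pairs the samples, and a fit with it as a block was an alternative. Other alternatives were the pseudocount, the filter, rescaling, the call rule, the variance model and leaving out each line. The fit was tested on simulated data with 200 of 12828 genes changed, for the averaged restoration, and recovered 76.6% of changes of 1 and 30% of changes of 0.5 on the log2 scale. The simulated noise was independent between samples, without the shared deviation of a line, so these rates need not hold for the data.

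All 9 genes are named, with 3 nearest profiles for each of the 8 tested and listed partners that passed. The members and lists were chosen with earlier results of these data known.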

Additional observations from a re-analysis of the deposited data

Results flagged for a closer look

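The response to restoration passed a difference between cell lines for 3 genes, 1 of them not readable, by a test of the difference itself in the fit by line that was chosen after the data were seen. The p-values of that fit measure the spread between guide populations of the same lines, not between tumours. The Fkbp5 response in 4711-18 minus that in 4711-1 was -0.78 (adjusted p = 0.0357, limma, and 0.0286 after rescaling), and Fkbp5 was lower after restoration in 3 of 3 guide pairs of both lines. The Fkbp10 response in 4716-11 minus that in 4711-1 was 0.69 (adjusted p = 0.037, and 0.0343 after rescaling), but in 4716-11 it was under 1 TPM, where the pseudocount holds any response near 0, so this value shows no difference of response. The Fkbp4 response in 4716-11 minus that in 4711-18 was 0.60 (adjusted p = 0.0487, and 0.052 after rescaling).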

How the results depend on the processing

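For restoration averaged over the guides, 5 genes passed, against 39.1% of all genes. With the cell line as a block 8 passed (63.4%), and with rescaling and the block together 8 (61.4%). When each line was left out 3 to 5 passed (24.5% to 29.9%), the lowest without 4716-11. When a log2 change of at least 1 was also asked, 0 passed, against 1146 of all 12828 genes. For restoration in sgBgal, with 2 passing (13.8% of all genes), the count was 5 after rescaling (13%), 6 with the block (42.1%) and 5 with both (38.5%). It was 0 with only the groups compared (6.7%), with the change of at least 1 (980 of 12828 genes) and without each line (3.77% to 7.58%). In sgPpia#3.2, with 0 passing (10% of all genes), the count was 2 after rescaling (9.99%), 4 with the block (34.1%) and 4 with both (32.2%). In sgPpia#4.1, with 2 passing (10.3%), the count was 1 without the filter (5.55%), 5 with the block (35.1%) and 5 with the block and rescaling (33.2%). It was 0 with only the groups compared (3.28%) and 1 without the 4711-18 sgPpia#3.2 Control library (10.6%). It was also 0 with the change of at least 1 (781 of 12828 genes) and without each line (2.23% to 6.38%). Between lines, counts are over the 7 genes other than Fkbp10. 4711-18 against 4711-1, with 3 passing (49.1% of all genes), gave 0 in only the sgBgal samples (11.5%). With the change of at least 1 it gave 0 (1146 of 12828 genes). 4716-11 against 4711-1, with 3 passing (46.6%), gave 1 after rescaling (46.4%). It gave 0 in only the Control samples (19.7%), in only the sgBgal samples (5.39%) and with the change of at least 1 (875 of 12828 genes). 4716-11 against 4711-18, with 2 passing (55.2%), both lower, gave 3 after rescaling (51.9%), all higher. It gave 1 without the filter (33.7%) and in only the Control samples (24.7%). It gave 0 in only the sgBgal samples (19%) and with the change of at least 1 (1149 of 12828 genes). Fewer samples or a stricter rule makes some of these counts smaller by construction; for the rest the cause was not tested. The block moved no guide comparison or difference of response from 0 among these genes.

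The directions that turned were of values that had not passed. Fkbp10 ranged from -0.422 to 0.075 in sgBgal when each line was left out (0.075 without 4711-1), and became 0.99 in sgPpia#3.2 and 0.18 on average without the 4711-18 sgPpia#3.2 Control library, where a fit without a line term loses 1 sample of the line with the highest level. After rescaling, Fkbp1a became -0.0635 for 4711-18 against 4711-1 and Fkbp5 0.17 for 4716-11 against 4711-18. In only the Control samples, Fkbp8 became 0.0204 for 4711-18 against 4711-1 and Fkbp1a -0.0156 for 4716-11 against 4711-18. In only the sgBgal samples, Pin4 became -0.0211 for 4716-11 against 4711-1 and Fkbp3 -0.0151 for 4716-11 against 4711-18.

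Fits without 1 library, with rescaling and the block together, and by line were chosen after seeing the data. Over all genes, restoration called 5407, 4378, 4505 and 8137 genes with the block, in sgBgal, sgPpia#3.2, sgPpia#4.1 and on average, against 1773, 1284, 1322 and 5013 without it. TPM keep no read depth, so counting error behind Fkbp2 and Fkbp10 in 4716-11 is unknown.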
